A study of Mus musculus with 18 samples.

Results

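The inhibin, activin and follistatin genes described here are 8 genes chosen by their symbols: the inhibin and activin subunits Inha, Inhba and Inhbb, the activin-binding proteins Fst and Fstl3, and the activin receptors Acvr1b, Acvr2a and Acvr2b. All 8 were found among the 30172 gene symbols of the study, and their RNA levels were read in each of the 18 libraries.

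The study sequenced RNA of whole ovaries from wild-type C57BL/6J mice of the F1 generation, to ask how hyperhomocysteinemia of the mother (HHcy, a raised blood level of homocysteine) bears on the ovaries of daughters. F1-HHcy pups were born to dams on a diet with 3% methionine by weight, the amino acid from which homocysteine is made. F1-Control pups were born to dams on normal chow. By the labels the methionine diet began 4 weeks before mating and went on through gestation and lactation, while the paper's methods give a longer feeding before mating. The pups themselves were not treated. Ovaries were taken at postnatal day 3, 7 or 21 (Pd3, Pd7, Pd21), with 3 libraries for each diet and day. The sources used here do not say how many pups went into a library, so p-values measure the spread between libraries, which may be technical. Pd3 and Pd7 made up sequencing batch 1 and Pd21 batch 2. Each comparison of diets therefore lay within 1 batch, and age and batch cannot be told apart between Pd7 and Pd21.

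Inhibins and activins are dimeric hormones of the TGF-beta superfamily that share their beta subunits. A beta subunit paired with the alpha subunit (Inha) makes an inhibin, which lowers the release of follicle-stimulating hormone (FSH) from the pituitary, while a pair of beta subunits (Inhba, Inhbb) makes an activin, which raises it. Activin binds a type II receptor (Acvr2a or Acvr2b), which engages the type I receptor Acvr1b and leads to phosphorylation of Smad2 and Smad3, whereas follistatin (Fst) and follistatin-like 3 (Fstl3) bind activin outside the cell and block it. In the ovary the granulosa cells of growing follicles are the main source of the alpha subunit, and inhibin in blood is used as a marker of growing follicles.

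Levels are given as FPKM, fragments scaled to the length of the gene and to the depth of the library. The values matched whole numbers of fragments for all 27294 genes above 0 in at least 3 libraries (within 0.02 fragments), and the libraries held between 33630641 and 39399281 fragments. At this depth the fewest fragments of any member in a library were 113, for Fstl3, and Inhba, the lowest member by FPKM, had between 137 and 818 in each Pd3 library. Levels of different genes depend on the gene length behind them, which for Inha was 2921 bases against 1475 exonic bases in the GENCODE vM21 annotation, for Inhba 14541 against 6390 and for Acvr2b 12298 against 3928. With the annotated length the levels of these 3 genes would be higher by factors of 1.98, 2.28 and 3.13, and those of Fst and Fstl3 would be lower, at 0.631 and 0.799 of the value given. A comparison of 1 gene between libraries does not depend on this length.

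**Figure D1:**
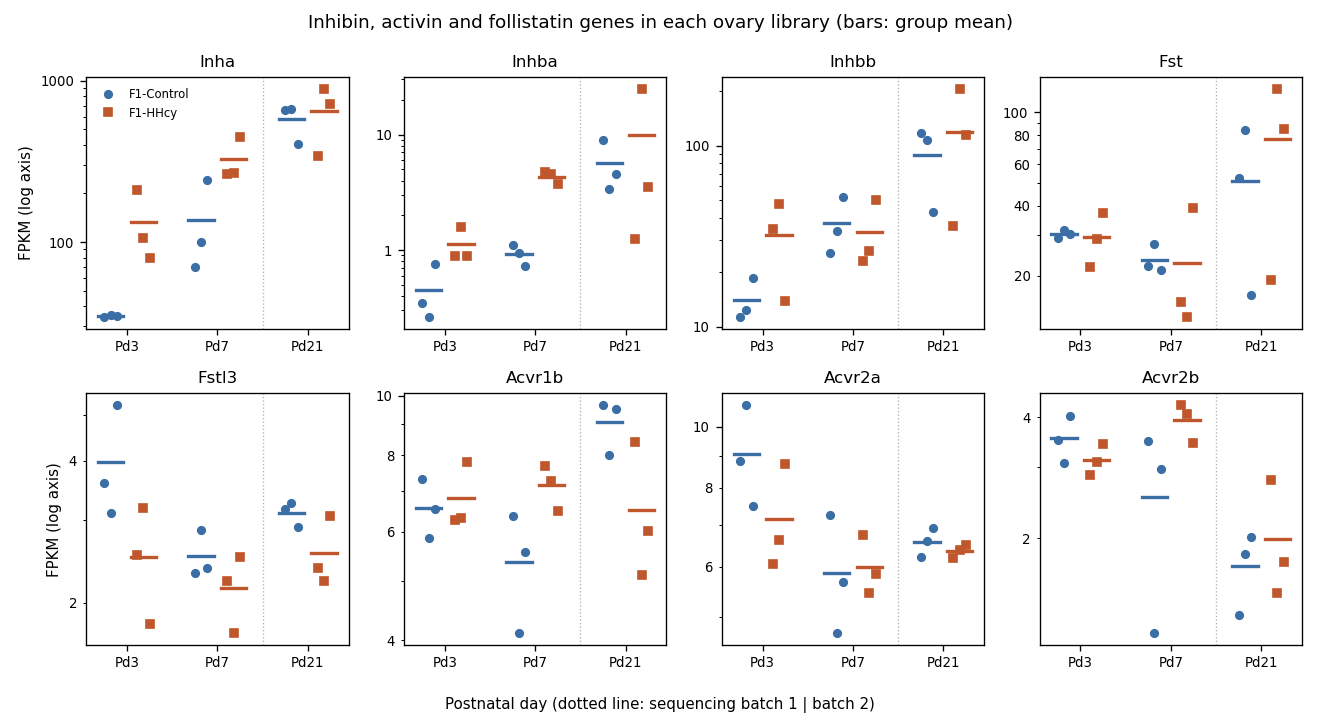
RNA level of each of the 8 genes in every ovary library, in FPKM on a log axis, by postnatal day, with circles for F1-Control, squares for F1-HHcy and bars at the group means (n = 3). Inha and Inhba of the F1-HHcy libraries lie above all F1-Control libraries at Pd3 and Pd7, and at Pd21 the diets overlap for all 8 genes.

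Inha was the most abundant member in every library and the gene in which the diets were furthest apart at Pd3. It lies at chr1:75507077-75510366 on the + strand of GRCm38. At Pd3 its level was 34.2, 35.1 and 34.6 FPKM in the F1-Control libraries and 211, 106 and 79.9 FPKM in the F1-HHcy libraries. The control libraries agreed within 1 FPKM, and each F1-HHcy library lay above them, by a factor of 3.83 in the means (132 ± 69.6 against 34.6 ± 0.46 FPKM, SD, n = 3 each). The log2 fold change on log2(FPKM + 1) was 1.78 (SE 0.31), and Inha rose with an adjusted p of 0.0338 from limma. The call held without F1-HHcy replicate 1 (1.39, adjusted p = 0.0360 from limma) or replicate 3 (2.08, adjusted p = 0.00181), and was lost without F1-HHcy replicate 2 (1.88, adjusted p = 0.0881) or any 1 control library, where the adjusted p lay between 0.122 and 0.188 and the change between 1.77 and 1.79.

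At Pd7 Inha was at 70.2, 99.6 and 242 FPKM in F1-Control and at 264, 267 and 448 FPKM in F1-HHcy. The groups did not overlap, although control replicate 3 came close to the F1-HHcy libraries. The mean was higher by a factor of 2.38 and the log2 fold change was 1.40 (SE 0.40), which passed by a small margin (adjusted p = 0.0497 from limma). Without control replicate 3 the change was 1.91 (adjusted p = 0.00237), and without any 1 of the other libraries the call was lost, with changes between 1.02 and 1.53 and adjusted p-values between 0.0830 and 0.164. A pseudocount of 0.1, median-ratio scaling and limma-voom on whole fragments gave 1.41, 1.39 and 1.41 with adjusted p-values of 0.0556, 0.0586 and 0.0621.

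At Pd21 Inha was at 660, 664 and 407 FPKM in F1-Control and at 343, 895 and 716 FPKM in F1-HHcy. The F1-HHcy libraries lay on both sides of the control libraries, and the difference was 0.10 (SE 0.37, 95% interval -0.75 to 0.96, adjusted p = 1.00 from limma). Since the RNA came from whole ovaries, more granulosa cells and more Inha RNA per cell cannot be told apart for this or any other gene here.

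Levels of some marker genes of granulosa cells moved with Inha at Pd3. Amh, a hormone of the granulosa cells of growing follicles, was at 1.65 to 2.51 FPKM in the control libraries and at 9.72 to 99.7 FPKM in F1-HHcy, and it followed the order of Inha within the F1-HHcy libraries, with replicate 1 highest and replicate 3 lowest. The FSH receptor gene Fshr was at 0.13 to 0.49 against 0.59 to 7.21 FPKM, and the aromatase gene Cyp19a1 at 0.35 to 0.70 against 0.79 to 3.09 FPKM. All 10 genes of the granulosa list were detected in every group, and their summed level overlapped between the diets at Pd3 (383 to 451 FPKM in F1-Control, 357 to 473 in F1-HHcy) and at Pd7 (335 to 458 and 418 to 591). The mean over the same 10 genes of log2(FPKM + 1), in which scarce genes weigh as much as abundant ones, did not overlap, at 3.48 to 3.77 in F1-Control and 3.89 to 5.05 in F1-HHcy at Pd3, and at 4.33 to 5.04 and 5.11 to 5.29 at Pd7. Of the list's 8 genes tested at Pd3, 5 differed upwards and 3 downwards, Amh rose and none fell. Fshr and Cyp19a1 were not among the 8, as neither reached 1 FPKM in 3 libraries that day. Of 10 tested at Pd7, 8 differed upwards and 2 downwards, Esr2 and Nr5a2 rose and Gatm fell. Of all genes tested, 3.07% were called at Pd3 (1.64% higher) and 11.9% at Pd7 (5.88% higher). Inha was also set against the mean of log2 FPKM over this list within each library. Here 1 was not added, so genes near 0, such as Fshr in the Pd3 controls, weigh more. By this ratio Inha was higher in F1-HHcy by 0.45 on the log2 scale at Pd3 (exact permutation p = 0.30, 2-sided) and by 0.70 at Pd7 (exact permutation p = 0.20), and the groups overlapped on both days. With 3 libraries against 3 this test cannot give a p below 0.1.

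Other cell types differed between the same groups. At Pd3 the summed level of 16 germ cell and oocyte markers was 1321 to 1594 FPKM in F1-Control and 1920 to 2517 in F1-HHcy. Among the 16, 8 differed upwards and 8 downwards that day, Gdf9 and Zp3 rose and none fell, and the germ cell gene Ddx4 was lower in each F1-HHcy library. At Pd7 the sum was 2157 to 3329 FPKM in F1-Control and 1277 to 1828 in F1-HHcy, where 2 rose and 9 fell. The summed level at Pd3 of 5 erythroid markers was 3887 to 11109 and 778 to 1107 FPKM, and at Pd7 it was 924.5 to 5727 and 286.6 to 501.6. At Pd7 the summed level of 9 theca and steroidogenic markers was 252 to 489 FPKM in F1-Control and 1203 to 1261 in F1-HHcy. That of 7 stroma and fibroblast markers at Pd3 was 747 to 1010 and 1355 to 1643 FPKM, and at Pd7 it overlapped (1470 to 1811 and 1109 to 1695). The sum of 5 endothelial markers at Pd3 was 35.4 to 49.2 and 62.0 to 88.8 FPKM. The sum of 5 macrophage markers was 22.6 to 29.0 and 30.6 to 33.1 FPKM at Pd3. At Pd7 the macrophage order was the other way, at 32.7 to 45.7 in F1-Control and 26.0 to 29.3 in F1-HHcy. Of 8 markers of pregranulosa cells and the ovarian surface epithelium, 1 fell at Pd3 and 4 fell at Pd7, and none rose. Beside these counts of called markers, 3.07% of all genes tested were called at Pd3 and 11.9% at Pd7, in either direction. None of these markers was at 0 in a whole group. Their part in the differences of Inha and Inhba was not tested.

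The sequence before the start site is shown for both beta subunit genes, whose levels parted at Pd7. The 250 bases before each start are given from the RefSeq promoter table on GRCm38.p6, 5′ to 3′ along the gene's strand, with each CG dinucleotide in capitals. The Inhba window is chr13:16011601-16011850 on the + strand and the Inhbb window chr1:119422249-119422498 on the - strand.
Inhba: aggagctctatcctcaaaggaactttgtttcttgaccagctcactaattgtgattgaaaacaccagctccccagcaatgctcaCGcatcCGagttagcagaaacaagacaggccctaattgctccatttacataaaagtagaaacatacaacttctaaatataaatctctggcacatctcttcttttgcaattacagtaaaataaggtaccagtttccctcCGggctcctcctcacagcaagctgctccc
Inhbb: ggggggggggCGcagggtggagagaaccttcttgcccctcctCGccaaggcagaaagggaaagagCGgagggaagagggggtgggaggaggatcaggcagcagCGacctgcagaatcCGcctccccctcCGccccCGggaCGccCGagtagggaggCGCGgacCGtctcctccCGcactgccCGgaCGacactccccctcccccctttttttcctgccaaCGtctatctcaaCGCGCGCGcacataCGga
The Inhba window held 3 CG dinucleotides and 43.2% G and C, and the Inhbb window 21 and 68.0%. Over the 32851 windows of this length in the table the median was 6 CG dinucleotides, 71.0% of windows held at least as many as Inhba and 16.3% at least as many as Inhbb. Windows of 7 of the 8 members were in the table. The receptor genes Acvr1b, Acvr2a and Acvr2b had 42, 49 and 24 CG dinucleotides, and the window listed for Inha lies inside the annotated gene and is not shown. DNA methylation was not analysed here, and the counts describe the sequence only.

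Inhba, which encodes the beta A subunit of inhibin A and activin A, lies at chr13:16011851-16031621 on the + strand. It was the scarcest member at Pd3, with 0.35, 0.26 and 0.75 FPKM in F1-Control and 0.89, 1.57 and 0.90 FPKM in F1-HHcy. The lowest F1-HHcy library lay just above the highest control library, by fragments 449 against 384. The gene was under the filter of 1 FPKM in 3 libraries at Pd3 and was not in the test of that day. In limma-voom on the whole fragments with no filter, added after seeing the data, its log2 fold change was 1.40 and did not pass (adjusted p = 0.149).

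At Pd7 Inhba was at 1.11, 0.95 and 0.72 FPKM in F1-Control and at 4.75, 4.55 and 3.69 FPKM in F1-HHcy. Every F1-HHcy library held more than 3 times the level of the highest control library, and the means differed by a factor of 4.68 (4.33 ± 0.56 against 0.93 ± 0.19 FPKM, SD, n = 3 each). The log2 fold change on log2(FPKM + 1) was 1.47 (SE 0.16), and Inhba rose (adjusted p = 0.00138 from limma). Because 1 is added to a low level this understates the change, which was 2.24 in limma-voom on whole fragments (adjusted p = 0.00214). The change stayed between 1.39 and 1.56 whichever library was left out, with the adjusted p at most 0.0154, but was not called in 1 model of all 18 libraries, whose spread is shared with Pd21 (adjusted p = 0.0930).

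At Pd21 Inhba was at 9.05, 3.35 and 4.56 FPKM in F1-Control and at 1.25, 25.0 and 3.53 FPKM in F1-HHcy. F1-HHcy replicates 1 and 2 were the lowest and the highest of the 6 libraries, and the difference of 0.04 had a wide interval (SE 0.78, 95% interval -1.75 to 1.83). Without replicate 2 it was -0.97 and without replicate 1 it was 0.80, and neither passed.

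Inhbb, which encodes the beta B subunit of inhibin B and activin B, lies at chr1:119415465-119422248 on the - strand. It was more abundant than Inhba in every library, with either gene length. At Pd3 it was at 11.3, 12.4 and 18.7 FPKM in F1-Control and at 34.8, 47.7 and 13.8 FPKM in F1-HHcy. Replicates 1 and 2 of F1-HHcy lay above all control libraries and replicate 3 lay among them. The log2 fold change was 1.00 (SE 0.41) and did not pass (adjusted p = 0.210 from limma), whereas without F1-HHcy replicate 3 it was 1.50 and passed (adjusted p = 0.00376).

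At Pd7 Inhbb was at 25.7, 33.7 and 52.4 FPKM in F1-Control and at 23.1, 26.2 and 50.2 FPKM in F1-HHcy. The groups overlapped through their whole range, and the difference was -0.19 (SE 0.31, 95% interval -0.88 to 0.51). At Pd21 Inhbb was at 117, 108 and 43.2 FPKM in F1-Control and at 36.0, 206 and 114 FPKM in F1-HHcy, with a difference of 0.21 (SE 0.61).

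Since FPKM is per length, the subunits were also set against each other within each library, where the scale of the library cancels. At Pd7 the log2 ratio of Inha to the sum of both beta subunits was 1.39, 1.52 and 2.19 in F1-Control and 3.24, 3.12 and 3.06 in F1-HHcy. All F1-HHcy libraries lay above the controls, by 1.44 on the log2 scale or a factor of 2.71 (exact permutation p = 0.10, the smallest this design allows). At Pd3 the difference was 0.75 (exact permutation p = 0.30) and at Pd21 -0.10 (exact permutation p = 1.0), with overlap on both days.

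The balance of the beta subunits differed at Pd7 as well. The log2 ratio of Inhba to Inhbb was -4.53, -5.15 and -6.18 in F1-Control and -2.28, -2.53 and -3.76 in F1-HHcy at that age. Inhbb RNA outweighed Inhba RNA in all 18 libraries, and at Pd7 the share of Inhba was higher in each F1-HHcy library by 2.43 on the log2 scale, a factor of 5.40 (exact permutation p = 0.10). The difference was 0.35 at Pd3 (exact permutation p = 0.60) and -0.32 at Pd21 (exact permutation p = 0.90). In all, 5 ratios were compared on 3 days, and after Benjamini-Hochberg adjustment over these 15 exact tests the lowest p was 0.50. The lengths noted above move a ratio between genes by the same amount in every library, except that they also set the weights within a sum.

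**Figure D2:**
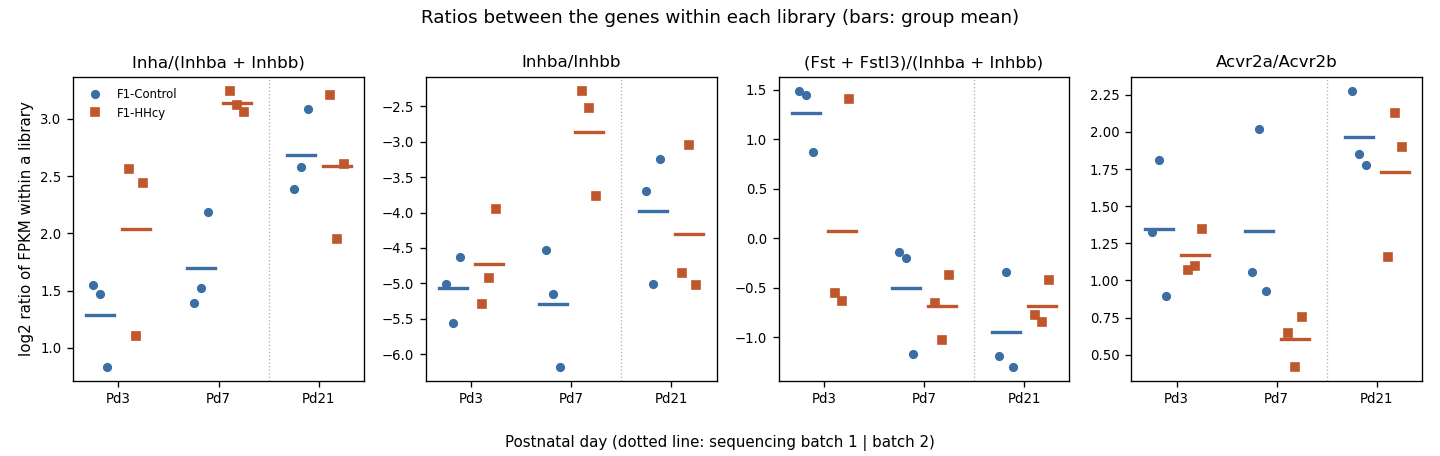
Log2 ratios of FPKM within each library by postnatal day, with circles for F1-Control, squares for F1-HHcy and bars at the group means (n = 3). At Pd7 the F1-HHcy libraries lie above the controls for Inha over the beta subunits and for Inhba over Inhbb, and below them for Acvr2a over Acvr2b.

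Neither of the activin-binding proteins passed the test on any day. Fst lies at chr13:114452290-114458951 on the - strand. At Pd3 it was at 29.1, 31.5 and 30.2 FPKM in F1-Control and at 21.9, 28.7 and 37.3 FPKM in F1-HHcy. The controls sat inside the wider range of the F1-HHcy libraries, and the difference was -0.08 (SE 0.18, 95% interval -0.50 to 0.34). At Pd7 it was at 22.0, 27.3 and 21.2 FPKM in F1-Control and at 15.5, 13.3 and 39.2 FPKM in F1-HHcy, a difference of -0.20 (SE 0.33). At Pd21 the groups overlapped widely, with 52.2, 84.4 and 16.5 FPKM in F1-Control and 19.3, 126 and 84.9 FPKM in F1-HHcy, and the difference was 0.49 (SE 0.74).

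Fstl3, at chr10:79777272-79782630 on the + strand, was lower than Fst in every library. At Pd3 it was at 3.59, 3.10 and 5.26 FPKM in F1-Control and at 2.53, 3.17 and 1.80 FPKM in F1-HHcy. F1-HHcy replicate 2 lay within the control range and the others below it, and the difference of -0.51 (SE 0.21) had an unadjusted p of 0.0473 and did not pass (adjusted p = 0.217 from limma). At Pd7 and Pd21 it was lower by -0.16 (SE 0.16) and -0.22 (SE 0.17), neither of which passed.

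The binding proteins were set against the beta subunits as the log2 ratio of Fst and Fstl3 to Inhba and Inhbb. At Pd3 it was 1.49, 1.45 and 0.87 in F1-Control and -0.55, -0.63 and 1.41 in F1-HHcy. In F1-HHcy replicates 1 and 2 the beta subunits outweighed the binding proteins, in contrast to the other 4 libraries of that day. The means differed by -1.19 (exact permutation p = 0.20), and by -0.18 at Pd7 and 0.26 at Pd21.

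Acvr1b, the type I receptor that signals for activin, lies at chr15:101174067-101213684 on the + strand. At Pd7 it was at 6.38, 4.10 and 5.57 FPKM in F1-Control and at 7.68, 7.26 and 6.48 FPKM in F1-HHcy. The F1-HHcy libraries lay above all control libraries, and the difference of 0.37 (SE 0.17) did not pass (adjusted p = 0.169 from limma). At Pd21 the order was the other way, with 9.66, 8.01 and 9.50 FPKM in F1-Control and 8.40, 5.10 and 6.02 FPKM in F1-HHcy, and the difference of -0.44 (SE 0.19) had an unadjusted p of 0.0492 and did not pass either (adjusted p = 0.725). At Pd3 the difference was 0.04 (SE 0.14).

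Acvr2a and Acvr2b encode the type II receptors that bind activin first. Acvr2a, at chr2:48814109-48903269 on the + strand, was at 7.50 to 10.8 FPKM in F1-Control and 6.05 to 8.74 FPKM in F1-HHcy at Pd3, at 4.71 to 7.24 and 5.45 to 6.74 FPKM at Pd7, and at 6.22 to 6.91 and 6.21 to 6.49 FPKM at Pd21. Its differences were -0.31 (SE 0.17), 0.04 (SE 0.17) and -0.04 (SE 0.14), and none passed. Acvr2b, at chr9:119402118-119434995 on the + strand, was at 3.08 to 4.03 and 2.88 to 3.43 FPKM at Pd3.

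At Pd7 Acvr2b was at 3.48, 1.16 and 2.98 FPKM in F1-Control and at 4.30, 4.08 and 3.46 FPKM in F1-HHcy. Control replicate 2, at 1.16 FPKM, was the lowest of all 18 libraries for this gene as well as for Acvr1b and Acvr2a. The FPKM of that library summed to 532003 over all genes, the highest sum of the 18 libraries, and its bearing on these levels was not tested. The difference was 0.55 (SE 0.25, adjusted p = 0.172 from limma), and 0.22 without control replicate 2. The log2 ratio of Acvr2a to Acvr2b was lower in each F1-HHcy library than in the controls at Pd7, by -0.73 (exact permutation p = 0.10), with overlap at Pd3 (-0.17) and Pd21 (-0.24). At Pd21 Acvr2b was at 1.28 to 2.01 FPKM in F1-Control and 1.46 to 2.79 FPKM in F1-HHcy.

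**Figure D3:**
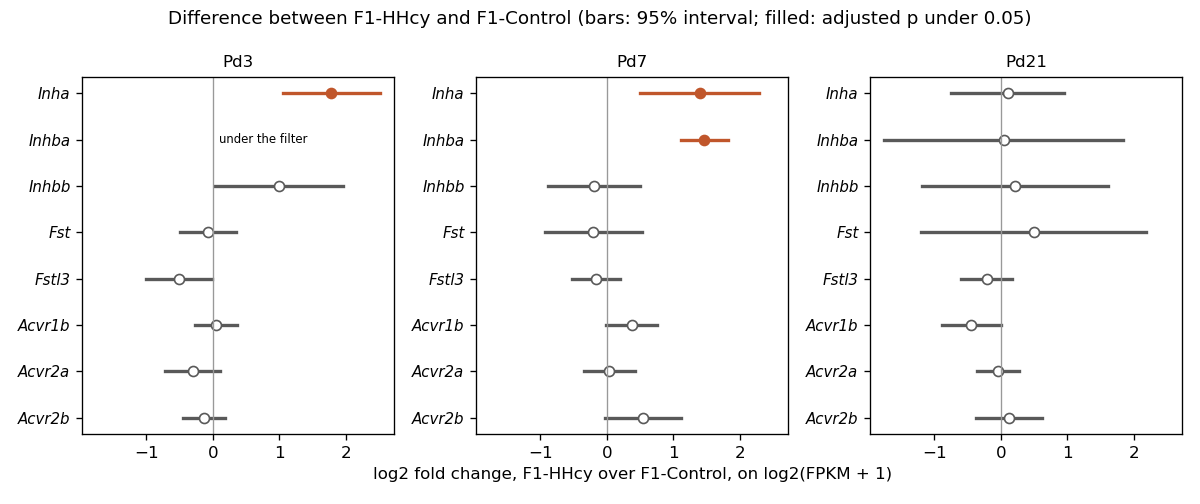
Log2 fold change of F1-HHcy over F1-Control on log2(FPKM + 1) for each gene at Pd3, Pd7 and Pd21, with 95% intervals from limma (n = 3 libraries per group). Filled points have an adjusted p under 0.05, which are Inha at Pd3 and Inha and Inhba at Pd7. Inhba at Pd3 lay under the filter on low values.

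Counted over the members, 1 of 7 tested rose at Pd3 and none fell, while 3.07% of the 13277 genes tested that day were called in either direction and 1.64% rose. At Pd7 2 of 8 rose and none fell, against 11.9% of 13299 genes called and 5.88% higher. At Pd21 none of 8 was called by limma, 1 had an unadjusted p under 0.05 (Acvr1b) and limma-voom called none, against 2.23% of 13350 genes called by limma. Of the 259 genes that limma-voom called at Pd21, none was higher. Among the members tested, the libraries of the diets did not overlap for Inha at Pd3, for Inha, Inhba and Acvr1b at Pd7 and for none at Pd21. This held for 27.9%, 39.0% and 10.5% of the genes tested on these days. Inhba did not overlap at Pd3 either, but it was not among the genes tested that day. By a volcano criterion, a log2 fold change beyond 0.58 either way together with an unadjusted p under 0.05, 2 members were called at Pd3 (Inha and Inhbb), 2 at Pd7 (Inha and Inhba) and none at Pd21, against 9.74%, 16.4% and 5.14% of all genes called in either direction. The median change of the tested members was -0.08, 0.21 and 0.07 on the 3 days, and that of all genes -0.03, 0.00 and -0.01.

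Whether the diet effect differed between days was tested in 1 model of all 18 libraries with 14607 genes. No member passed for Pd7 against Pd3, where 0.411% of genes were called, or for Pd21 against Pd7, where 3.89% were called, and limma-voom called no member for either. An unadjusted p under 0.05 was reached by 1 member in the first contrast (Acvr2b) and 2 in the second. The effect at Pd21 minus that at Pd7 was -1.30 for Inha (SE 0.61, adjusted p = 0.255 from limma). For Acvr1b, whose effect was 0.37 at Pd7 and -0.44 at Pd21, it was -0.82 (SE 0.24, adjusted p = 0.0681). For Inhba the difference was -1.43 (SE 0.80, adjusted p = 0.333), and without F1-HHcy_Pd21 replicate 2, the library with 25.0 FPKM, it was -2.44 and passed (adjusted p = 0.00352). Without F1-HHcy_Pd21 replicate 1 the difference for Acvr1b was -0.99 and passed (adjusted p = 0.0155). The second contrast uses the Pd21 control libraries, which carried the oviduct genes described below, and their part was not tested.

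With age, subunit genes rose in F1-Control ovaries, Inha at both steps, Inhbb from Pd3 to Pd7 and Inhba from Pd7 to Pd21. Inhba lay under the filter from Pd3 to Pd7 and was not tested there. From Pd3 to Pd7, Inha rose by 1.76 (SE 0.37, adjusted p = 0.0162 from limma) and Inhbb by 1.31 (SE 0.26, adjusted p = 0.0132), which made 2 of 7 members tested, against 14.5% of 13336 genes called and 6.90% that rose. Of the 10 granulosa markers 6 rose and 2 fell over the same step. Fst, Fstl3 and Acvr2a differed by -0.36, -0.49 and -0.55 and did not pass (adjusted p from 0.0761 to 0.109). Leaving out 1 Pd3 library took away the call of Inha in each of 3 cases and that of Inhbb without replicate 1 or 2 (adjusted p from 0.0524 to 0.0626), and Fst passed at -0.47 without F1-Control_Pd7 replicate 2, as did Acvr2a at -0.69 without F1-Control_Pd7 replicate 1.

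In F1-HHcy ovaries no member passed from Pd3 to Pd7, and neither did any of the 13257 genes (0.00% called), with limma or with limma-voom. There 3119 genes had an unadjusted p under 0.05, among them 2 members, Inha at 1.37 (SE 0.37, adjusted p = 0.111) and Inhba at 1.34 (SE 0.17, adjusted p = 0.0892). Without F1-HHcy_Pd3 replicate 1, the library with the highest Inha of its group, both passed, at 1.77 (adjusted p = 0.0161) and 1.27 (adjusted p = 0.0154). Both met the volcano criterion as higher, as did 5.73% of genes. Inhbb differed by 0.12 (SE 0.46). The comparisons of ages share their Pd7 or Pd3 libraries with the comparisons of diets.

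From Pd7 to Pd21 in F1-Control, Inha rose by 2.23 (SE 0.41, adjusted p = 0.00736 from limma), Inhba by 1.70 (SE 0.29, adjusted p = 0.00524) and Acvr1b by 0.68 (SE 0.18, adjusted p = 0.0306), so that 3 of 8 members were called, against 21.4% of 13489 genes and 14.0% that rose. Inhbb differed by 1.17 (SE 0.38) and did not pass (adjusted p = 0.0580), but passed without F1-Control_Pd7 replicate 3 (1.44, adjusted p = 0.0426) or F1-Control_Pd21 replicate 3 (1.63, adjusted p = 0.00726), as did Fst without the latter (1.47, adjusted p = 0.00570). The call of Acvr1b was lost in 5 of the 6 fits that left out 1 library, all but the one without F1-Control_Pd7 replicate 1. The Pd21 control libraries also carried genes of the oviduct epithelium, described below, whose part in this step was not tested. In F1-HHcy only Acvr2b was called, and it fell by 0.74 on the log2 scale (SE 0.19, adjusted p = 0.0418), while 13.4% of 13256 genes were called and 6.43% fell. Inha differed by 0.93 (SE 0.37), Inhbb by 1.57 (SE 0.56) and Fst by 1.52 (SE 0.65), and each passed without F1-HHcy_Pd21 replicate 1 (adjusted p from 0.00477 to 0.00862). These 3 met the volcano criterion, as did 8.88% of genes in that direction. The call of Acvr2b was lost without F1-HHcy_Pd7 replicate 1 or 2 or F1-HHcy_Pd21 replicate 2 or 3 (adjusted p from 0.0905 to 0.178).

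Ranked by group means, Inha climbed from F1-Control at Pd3 (34.6 FPKM) over F1-HHcy at Pd3 (132) and F1-Control at Pd7 (137) to F1-HHcy at Pd7 (326), F1-Control at Pd21 (577) and F1-HHcy at Pd21 (651). Only the step after F1-Control at Pd3 and the step before F1-HHcy at Pd7 separated neighbours whose libraries did not overlap. For Inhba the single such step lay between F1-HHcy at Pd3 (1.12 FPKM) and F1-HHcy at Pd7 (4.33), and for Acvr1b between F1-HHcy at Pd7 (7.14) and F1-Control at Pd21 (9.06). For Inhbb, Fst, Fstl3, Acvr2a and Acvr2b every pair of neighbours overlapped. From the lowest to the highest library the level varied 95-fold for Inhba, 26.2-fold for Inha, 18.2-fold for Inhbb and 9.46-fold for Fst, and between 2.30-fold and 3.71-fold for Fstl3 and the receptors.

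F1-HHcy_Pd21 replicate 2 held the highest level of all 18 libraries for Inha, Inhba, Inhbb and Fst, and replicate 1 of the same group the lowest level of its day for Inha, Inhba and Inhbb. The Pd21 control libraries also carried genes of the oviduct epithelium, with the ciliated cell regulator Foxj1 at 20.4 to 99.1 FPKM against 0.25 to 0.44 in F1-HHcy, and the secreted oviduct glycoprotein Ovgp1 at 37.5 to 365 against 0.37 to 2.10 FPKM. The summed level of 5 multiciliated markers was 88.7 to 292 FPKM in these controls and 8.34 to 12.9 FPKM in F1-HHcy. In the Pd7 control libraries this sum was 7.27 to 11.8 FPKM. Its part was not tested in any comparison that uses the Pd21 libraries, between diets, ages or days.

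Genes of the activin pathway outside the members were taken from a list of 32, of which 31 were in the files. At Pd3 1 of 18 tested rose and none fell, against 3.07% of all genes called, at Pd7 1 of 17 rose and 1 fell, against 11.9%, and at Pd21 none of 19 was called by limma or met the volcano criterion. The gene that rose on both days was Tgfbr3, which encodes betaglycan, the co-receptor through which inhibin competes with activin for the type II receptors. At Pd3 Tgfbr3 was at 4.80, 4.94 and 5.06 FPKM in F1-Control and at 10.7, 9.59 and 8.73 FPKM in F1-HHcy, a change of 0.84 (SE 0.12, adjusted p = 0.0211 from limma). At Pd7 it was at 9.36, 5.88 and 10.8 FPKM in F1-Control and at 17.6, 17.6 and 16.7 FPKM in F1-HHcy, a change of 0.95 (SE 0.20, adjusted p = 0.0160). The F1-HHcy libraries lay well above the controls on both days. At Pd21 the groups overlapped (9.91 to 17.4 and 11.1 to 14.2 FPKM), with a difference of -0.07 (SE 0.21). The Pd3 call was lost in 5 of the 6 fits that left out 1 library, all but the one without F1-HHcy_Pd3 replicate 3, and the Pd7 call without any 1 F1-HHcy library (adjusted p from 0.0534 to 0.0592).

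Pcsk6, a protease that cleaves precursors of TGF-beta family ligands, fell at Pd7. It was at 97.7, 97.9 and 88.3 FPKM in F1-Control and at 58.9, 53.7 and 59.8 FPKM in F1-HHcy, a change of -0.71 (SE 0.13, adjusted p = 0.0114 from limma). The groups were well apart, and the call was lost without F1-HHcy_Pd7 replicate 1 or 2 (adjusted p = 0.0594 and 0.0633). At Pd3 it differed by -0.36 (SE 0.20) and at Pd21 by -0.18 (SE 0.43).

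Of the intracellular mediators, Smad3 was at 76.1, 70.5 and 81.1 FPKM in F1-Control and at 32.9, 40.4 and 56.4 FPKM in F1-HHcy at Pd3. All F1-HHcy libraries were lower, the difference was -0.83 (SE 0.19), and it did not pass (adjusted p = 0.0603 from limma), though it did without F1-HHcy_Pd3 replicate 3 (-1.04, adjusted p = 0.00181). At Pd7 and Pd21 Smad3 differed by -0.10 (SE 0.16) and 0.07 (SE 0.35). Smad2, the other receptor-activated mediator, differed by 0.10, -0.12 and 0.08 on the 3 days, and Smad4, their common partner, by -0.10, 0.04 and 0.01. Foxl2, a transcription factor of granulosa cells that acts with Smad3 on activin target genes, differed by 0.10 (SE 0.11), 0.34 (SE 0.17) and 0.12 (SE 0.34) and did not pass.

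Between ages, 3 of 18 genes of this list were called from Pd3 to Pd7 in F1-Control, against 14.5% of all genes. Fstl1 and Pcsk5 rose and Smad3 fell by 1.15 on the log2 scale (SE 0.13). From Pd7 to Pd21 in F1-Control Foxl2 rose and Fstl1 fell, 2 of 18 against 21.4% of all genes. In F1-HHcy limma called none of 17 from Pd3 to Pd7, where 0.00% of all genes were called, so no list could hold a call. From Pd7 to Pd21 it called none of 18, against 13.4% of all genes. By the volcano criterion 1 was higher and 2 lower at the first step, and 2 were higher and none lower at the second. Of all genes, 5.73% and 8.88% were higher by this criterion. The share of all genes that were lower by it is not given, so the counts of lower genes cannot be set against a general rate.

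**Figure D4:**
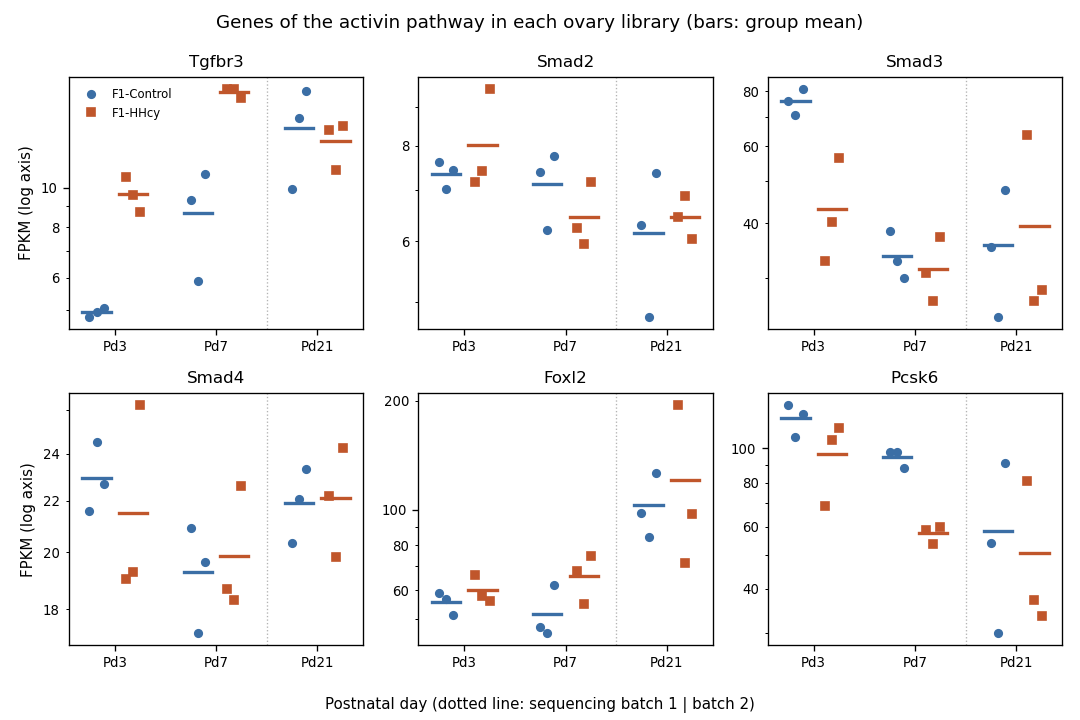
RNA levels of the betaglycan gene Tgfbr3, the mediators Smad2, Smad3 and Smad4, the transcription factor gene Foxl2 and the protease gene Pcsk6 in every library, in FPKM on a log axis, with circles for F1-Control, squares for F1-HHcy and bars at the group means (n = 3). Tgfbr3 lies higher in F1-HHcy at Pd3 and Pd7, and Smad3 lies lower in F1-HHcy without overlap at Pd3.

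As a description, the genes whose levels ran most like each member were ranked by Pearson's r of log2(FPKM + 1) over the 18 libraries, which share age, batch and diet. For Inha these were Slco3a1 (r = 0.990), Apoa4 (0.989) and Nr5a2 (0.989), the last a nuclear receptor of granulosa cells and 1 of the 10 granulosa markers. For Inhbb they were Htra1 (0.974), Dnph1 (0.966) and Sema3g (0.961), and for Inhba Serpinb9 (0.875), Fam171b (0.867) and Mpv17 (0.865). Fst ran most like Ext1 (0.932), Tafa4 (0.923) and Mpped2 (0.911), and Fstl3 most like Epp13 (0.840), Klhdc4 (0.798) and Pctp (0.793). The receptors were nearest to Fam83h (0.905, Acvr1b), Tmem170b (0.910, Acvr2a) and Asxl2 (0.977, Acvr2b). Among the members the highest values joined Inha with Inhbb (0.864) and Inha with Inhba (0.794), and the lowest was that of Acvr2b with Inhbb (-0.712).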

How the data were processed

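RNA of whole ovaries was measured by poly-A selected, stranded sequencing in 18 libraries, 3 for each of 6 groups of diet and day, grouped by GEO's labels. The submitters' processing notes name FastQC 0.11.9, Trimmomatic 0.39, STAR 2.7.9a, featureCounts 2.0.1, DESeq2 1.36.0 and the build GRCm38, with no role given. For each library the authors deposited a table of values by gene symbol, whose unit is not named and was read as FPKM, because with gene length and depth taken out the values gave whole fragments within 0.02. Between 22595 and 24011 genes were above 0 per library. Libraries of a group differed beyond sampling noise (lowest chi-square per degree of freedom 11.4).

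Genes with at least 1 FPKM in 3 of 6 libraries were tested on log2(FPKM + 1) with limma 3.58.1 in R 4.3.3 (intensity trend), adjusted by Benjamini-Hochberg over all genes tested, with a call at an adjusted p under 0.05. The limma step was tested on simulated data. The volcano criterion, a pseudocount of 0.1, no filter, median-ratio scaling, limma-voom on the recovered fragments, a replicate block, 1 model of all libraries and leaving out each library were alternatives. At Pd3, Pd7 and Pd21 limma called 408, 1577 and 298 genes and limma-voom 304, 1374 and 259. Ratios used 2-sided exact permutation tests (Python 3.11.15, numpy 2.4.6, pandas 2.3.3; figures with matplotlib 3.10.9).

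Same-numbered libraries deviated together (r above 0.1) in all 3 pairs only from Pd3 to Pd7 in F1-Control (r = 0.134, 0.262 and 0.292). In F1-HHcy 1 pair did so from Pd3 to Pd7 (0.123) and 2 from Pd7 to Pd21 (0.19 and 0.197). The numbers come from the sample titles, and no label makes them pairs. The values given for Pd3 to Pd7 in F1-Control are from fits without pairs, and the replicate block, run as an alternative, changed no call of a member there. The members and gene lists were chosen with earlier results of these data known. Named genes are all members, 5 fixed pathway genes, every pathway gene called between diets, a few cell type markers and the 3 genes most correlated with each member.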

Additional observations from a re-analysis of the deposited data

Results flagged for a closer look

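The diet effect on Tgfbr3, the betaglycan gene, differed between Pd7 and Pd21, which is a tested difference between days. It was -1.03 on the log2 scale (SE 0.27, adjusted p = 0.0443 from limma in 1 model of 18 libraries), from effects of 0.95 at Pd7 and -0.07 at Pd21. Pd7 and Pd21 were in different batches. The call was lost with a pseudocount of 0.1 (adjusted p = 0.0502), with no filter (0.0809), with limma-voom (0.0632) and with the replicate block (0.0521). It was also lost in 9 of the 12 fits that left out 1 library, all but those without F1-HHcy_Pd21 replicate 1, F1-Control_Pd7 replicate 3 or F1-Control_Pd21 replicate 1, with differences from -1.24 to -0.80.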

How the results depend on the processing

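Of 1332 values of single genes under alternatives, 1187 kept their direction and side of the threshold, 67 lost a call, 27 gained one and 51 turned direction, the last in 27 results of which 0 were called. The count of members that rose at Pd3 was 1, and it was 0 with no filter, 0 with limma-voom with no filter, 0 with the replicate block (Inha, adjusted p = 0.109) and 2 by the volcano criterion. At Pd7 it was 2, and 1 with a pseudocount of 0.1, no filter, median-ratio scaling, limma-voom with or without a filter, or 1 model of 18 libraries. From Pd3 to Pd7 in F1-Control 2 rose and 0 fell, against 0 that rose with no filter, and 1 that rose and 1 that fell (Acvr2a) in the model of 18 libraries. In F1-HHcy 0 rose over that step, and 2 by the volcano criterion. From Pd7 to Pd21 in F1-Control 3 rose, and 1 with no filter. In F1-HHcy 1 fell, and 0 with no filter, while 0 rose, and 3 with the replicate block (Inha, Inhbb and Fst, adjusted p = 0.0484, 0.0179 and 0.0330) or by the volcano criterion. For the difference between Pd7 and Pd21 0 were called lower, and 1 with the replicate block (Acvr1b, adjusted p = 0.0384). The block moved no other count of members. The replicate numbers are names from the sample titles and no label makes them pairs. Outside Pd3 to Pd7 in F1-Control the correlations of same-numbered libraries ran from -0.338 to 0.197. The diet effect on Inhba at Pd21 turned to -0.087 with a pseudocount of 0.1, -0.10 with limma-voom and -0.10 without the filter as well. The cause was not tested.

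Leaving out 1 library at a time, members that rose numbered 0 to 2 at Pd3, 1 to 2 at Pd7, 0 to 2 from Pd3 to Pd7 in F1-Control (0 to 1 fell), 0 to 2 in F1-HHcy, and 0 to 3 from Pd7 to Pd21 in F1-HHcy (0 to 1 fell), with 0 to 1 lower for the difference between Pd7 and Pd21. Uncalled values that crossed 0 ranged at Pd3 from -0.26 to 0.11 (Fst), -0.048 to 0.11 (Acvr1b) and -0.010 to 0.17 (Smad2). At Pd7 they ranged from -0.52 to 0.084 (Inhbb), -0.66 to 0.079 (Fst), -0.085 to 0.18 (Acvr2a), -0.22 to 0.013 (Smad3) and -0.051 to 0.099 (Smad4). At Pd21 they ranged from -0.18 to 0.51 (Inha), -0.97 to 0.80 (Inhba), -0.34 to 0.90 (Inhbb), -0.15 to 1.28 (Fst), -0.052 to 0.26 (Acvr2b), -0.070 to 0.20 (Smad2), -0.32 to 0.30 (Smad3), -0.058 to 0.081 (Smad4), -0.29 to 0.084 (Tgfbr3), -0.28 to 0.44 (Foxl2) and -0.58 to 0.21 (Pcsk6). In F1-HHcy Inhbb ranged from -0.37 to 0.48 from Pd3 to Pd7 and Inhba from -0.73 to 1.03 from Pd7 to Pd21. For the difference between Pd3 and Pd7 the ranges were -0.76 to 0.12 (Inha), -0.59 to 0.16 (Fst) and -0.12 to 0.27 (Tgfbr3), and between Pd7 and Pd21 -0.16 to 1.09 (Inhbb), -0.16 to 0.027 (Fstl3) and -0.22 to 0.044 (Acvr2a). For the log2 ratios they were -0.41 to 0.22 (Inha to the beta subunits, Pd21), -0.038 to 0.63 and -0.95 to 0.045 (Inhba to Inhbb, Pd3 and Pd21), -0.51 to 0.0010 (binding proteins to beta subunits, Pd7), -0.40 to 0.061 and -0.44 to 0.045 (Acvr2a to Acvr2b, Pd3 and Pd21) and -0.27 to 0.36 (Inha to granulosa markers, Pd21).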
